A study of Homo sapiens with 18 samples.

Results

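The comparison described here is that of KO5.2 with KO1.8, the ARID2 knockout (KO) lines made from the melanoma cell line 501mel, set directly against each other. Its members are 4 libraries, 2 of KO5.2 and 2 of KO1.8, out of 18 in the series, and they were chosen by the line named in the labels. 501mel is a metastatic melanoma line with the BRAFV600E mutation, and per the labels both KO lines received by viral transduction a single Lenti-CRISPR V2 vector for Cas9 and a guide. The control lines of 501mel were NTC, with the same kind of vector, and Par, without a construct, each with 2 libraries. They entered the estimate of the spread and are given as levels beside the KO lines. All lines were grown in DMEM with serum, and polyadenylated RNA was sequenced with a directional kit. The labels leave out whether each KO line was cloned, which guide it carried, and whether its replicates were grown separately. With 1 line for each number, the guide, the history of the line and the knockout cannot be told apart. All p-values measure the spread between libraries of a line, which may be technical.

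ARID2 is the DNA-binding subunit that marks PBAF, a form of the SWI/SNF complexes, which slide and evict nucleosomes. In pigment cells the transcription factors MITF and SOX10 drive the melanosome genes, whose products make and carry melanin, and melanoma cells can lower this program and take on a neural crest-like or undifferentiated one. Cancer-testis genes are silent in most adult tissues outside the germline and are kept off mainly by DNA methylation of their promoters. Many of them lie on the X chromosome, and melanomas often express them. Lines grown apart from a common source can also differ in chromosome content. DNA was not measured here.

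The libraries held 19548606 and 20368836 counts in KO5.2, 18981816 and 20606855 in KO1.8, and 16749707 to 19974925 in the control lines. Mitochondrial genes took 6.86 to 6.98% of counts in KO5.2, 6.35 to 6.58% in KO1.8 and 6.81 to 7.38% in the controls. Over 10304 genes, the root mean square log2 difference between a KO5.2 and a KO1.8 library was 0.42 to 0.431, against 0.119 within KO5.2 and 0.143 within KO1.8. NTC libraries lay 0.258 to 0.273 from Par libraries. KO5.2 libraries lay 0.457 to 0.474 from Par and 0.546 to 0.552 from NTC. KO1.8 libraries lay 0.314 to 0.335 from Par and 0.421 to 0.425 from NTC, so KO1.8 was about as far from NTC as from KO5.2. The melanocyte lineage markers MITF, SOX10, PMEL, MLANA, TYR, DCT and TYRP1 were detected in all 8 libraries of 501mel, with a summed level of 6677 to 6807 CPM (read counts scaled to a common library total) in KO5.2, 9135 to 9604 CPM in KO1.8, 9410 to 9739 CPM in NTC and 9276 to 9366 CPM in Par. Without TYRP1 the sum was 5723 to 5834 CPM in KO5.2, against 5722 to 5847 CPM in KO1.8, so the ranges of the KO lines overlapped. ARID2 stood at 19.8 and 20.96 CPM in KO5.2 libraries, against 30.9 and 31.9 CPM in KO1.8 libraries, with 40.9 and 43.2 CPM in NTC and 43.1 and 40.9 CPM in Par. It was thus lower in KO5.2 than in KO1.8, with a log2 fold change of −0.62 ± 0.076 (standard error, SE; adjusted p = 1.5e-05), and its RNA was present in both KO lines. Here as for every gene below, fewer expressing cells and less RNA per cell cannot be told apart in bulk RNA.

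The KO lines differed at a large share of the genes. Of 16230 genes tested, 6701 (41.3%) passed an adjusted p of 0.05, 3348 (20.6%) higher and 3353 (20.7%) lower in KO5.2. Over all genes tested, called or not, the median absolute log2 fold change was 0.26 and the median signed change was −0.0033. Past 2-fold, 1234 genes (7.6%) differed, and these were unevenly split, with 326 (2.01%) higher and 908 (5.59%) lower in KO5.2. The control lines, whose libraries are not in the contrast, differed at 2547 genes (15.7%), and at 439 (2.7%) past 2-fold, for NTC minus Par.

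The excess of falls lay among genes of low level. Below a mean of 1 CPM, 105 genes rose and 398 fell past 2-fold, which were 4.8% and 18.2% of 2189 genes tested there. From 1 to 8 CPM the counts were 142 and 416 of 3777 genes. From 8 to 32 CPM they were 48 and 73 of 4288. Above 32 CPM, 31 genes rose and 21 fell past 2-fold, of 5976 genes. At 1 CPM or more on average, 13752 of the genes tested were expressed in KO5.2, against 14069 in KO1.8, 14090 in NTC and 14120 in Par.

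Set beside the mean of the controls, both lines contributed to the difference, and both comparisons with the controls share those libraries. KO5.2 differed from the controls at 53.5% of genes, past 2-fold at 10.7%, and KO1.8 at 40.2%, past 2-fold at 6.21%. Of the 908 genes lower in KO5.2 than in KO1.8 past 2-fold, KO5.2 was farther from the control mean at 670 and KO1.8 at 238. Of the 326 higher ones, the numbers were 183 and 143. In the lower group, 435 genes were past 2-fold from the controls in KO5.2 alone, 141 in KO1.8 alone, 126 in both on the same side and 45 in both on opposite sides.

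Among genes of moderate or high level, RORB was one of the 12 that rose most in KO5.2. RORB, a nuclear receptor of the retina and brain, stood at 41.99 and 41.4 CPM in KO5.2 libraries, against 5.67 and 5.99 CPM in KO1.8 libraries, with 42.6 and 38.9 CPM in NTC and 34.7 and 27.1 CPM in Par. KO5.2 thus lay within the control range and KO1.8 below it. The log2 fold change was 2.84 ± 0.12 (adjusted p = 6.8e-10), on a chromosome, 9, where most genes were lower in KO5.2. NCAM1, a neural cell adhesion molecule, was at 138 and 137 CPM in KO5.2, against 23.1 and 22.9 CPM in KO1.8, 100.3 and 97.2 CPM in NTC and 96.5 and 85.8 CPM in Par (2.58 ± 0.070, adjusted p = 5.9e-12). KO5.2 was somewhat above the controls here, and KO1.8 was the line farther from them.

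In SV2A, a synaptic vesicle protein, MAP2, a neuronal microtubule protein, PNLDC1, an RNA exonuclease of the germline, and YPEL3, KO1.8 was likewise below all control libraries. SV2A was at 37.3 and 36.9 CPM in KO5.2, against 8.01 and 9.23 CPM in KO1.8, 21.1 and 19.4 CPM in NTC and 30.8 and 29.9 CPM in Par, so that KO5.2 was also above the controls. PNLDC1 was at 16.9 and 16.8 CPM in KO5.2, against 4.01 and 4.16 CPM in KO1.8, 18.1 and 15.99 CPM in NTC and 16.9 and 17.98 CPM in Par. There KO5.2 sat among the controls, and the log2 fold change was 2.05 ± 0.12, or 1.56 with the shift of its region on chromosome 6 removed, as described further on. MAP2 differed by 1.95 ± 0.082 and YPEL3 by 2.13 ± 0.11.

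In a second group of rises KO5.2 was above the controls. MCAM, the melanoma cell adhesion molecule CD146, was at 247 and 236 CPM in KO5.2, against 60.3 and 59.4 CPM in KO1.8, 23.9 and 19.2 CPM in NTC and 26.3 and 23.95 CPM in Par, a log2 fold change of 2.01 ± 0.074 (adjusted p = 1.2e-10). ALDH1L1, a folate enzyme, was at 21.7 and 20.2 CPM in KO5.2, against 3.85 and 3.82 CPM in KO1.8 and under 1 CPM in every control library. Both KO lines were above the controls for both genes, KO5.2 more so. LDLRAD4, an inhibitor of TGF-beta signalling, differed by 2.49 ± 0.14, EVA1A by 2.27 ± 0.12, B3GAT1, which makes the HNK-1 carbohydrate of neural crest cells, by 2.11 ± 0.13, and COL9A3, a cartilage collagen chain, by 1.97 ± 0.10.

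The largest falls included genes almost without RNA in KO5.2. PRKCB, protein kinase C beta, was at 0.788 and 1.31 CPM in KO5.2 libraries, against 74.1 and 76.7 CPM in KO1.8, 66.4 and 59.2 CPM in NTC and 77.9 and 75.5 CPM in Par, a log2 fold change of −6.15 ± 0.13 (adjusted p = 5.3e-13). KO1.8 lay within the range of the controls, and KO5.2 stood far below them. HTN1, a histatin of saliva, was at 1.52 and 1.51 CPM in KO5.2, against 222 and 236 CPM in KO1.8, 0.773 and 0.883 CPM in NTC and 25.1 and 32.5 CPM in Par (−7.23 ± 0.13, adjusted p = 7.7e-14). For HTN1 it was KO1.8 that exceeded all other lines, and the control lines themselves differed, by −5.10 for NTC minus Par. A2M, a secreted protease inhibitor, was likewise highest in KO1.8, at 2.84 and 2.26 CPM in KO5.2, against 57.02 and 56.3 CPM in KO1.8, 8.86 and 11.04 CPM in NTC and 19.1 and 18.7 CPM in Par.

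AK4, a mitochondrial adenylate kinase, differed by −4.41 ± 0.13, and its processed copies make its own count uncertain. AHNAK, a giant membrane-linked protein, differed by −2.42 ± 0.13, KLHL6 by −2.22 ± 0.065, LINC00504, a non-coding RNA, by −3.04 ± 0.16, and the histone gene HIST1H2BK, one of a family of near-identical genes, by −2.25 ± 0.20. AHNAK lies on chromosome 11, where most genes were higher in KO5.2.

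Part of the divergence ran along chromosomes. The median log2 fold change was −0.49 over 564 genes of chromosome 9, a level ratio of 0.714, and 68.8% of these genes were called lower and 2.48% higher. On chromosome 14 it was −0.40 over 440 genes, with 63.4% called lower. The median was 0.29 on chromosome 8, 0.26 on chromosome 11, 0.25 on chromosome 10, 0.14 on chromosome 6 and −0.25 on X. On the other chromosomes it lay between −0.066 and 0.059.

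**Figure D1:**
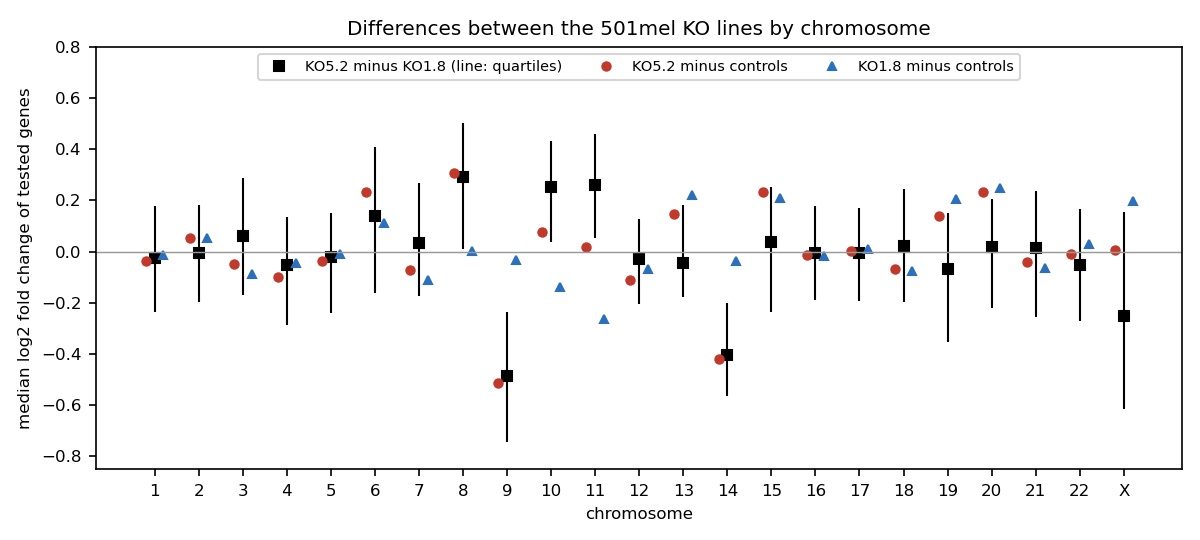
Median log2 fold change of the tested genes of each chromosome. Black squares show KO5.2 minus KO1.8 with the quartiles as a line, red circles KO5.2 minus the mean of NTC and Par, blue triangles KO1.8 minus that mean. On chromosomes 9, 14 and 8 the KO5.2 circles stand away from 0, while on 11 the KO1.8 triangle does.

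The values against the controls placed each line. On chromosome 9 the median was −0.51 for KO5.2 minus controls and −0.032 for KO1.8 minus controls, and on chromosome 14 it was −0.42 and −0.038. On chromosome 8 it was 0.31 and 0.0021. On chromosome 11 it was 0.017 for KO5.2 and −0.26 for KO1.8, and on chromosome 10 the values were 0.076 and −0.14. NTC minus Par had a median of 0.0082 on chromosome 9, 0.032 on 14, −0.077 on 8, 0.058 on 11 and 0.19 on chromosome 10. Chromosomes 13, 15, 19 and 20 had medians above the controls in both KO lines by 0.14 to 0.23 in KO5.2 and 0.20 to 0.25 in KO1.8, and their medians between the KO lines were −0.066 to 0.037. Both sets of values against the controls share the control libraries.

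On some chromosomes the shift covered a part, and on 9 and 14 it reached as far as it could be followed. Running medians over 51 neighbouring genes, taken among genes of at least 8 CPM on average, passed 0.2 in size in 13 stretches of at least 51 genes, limits that were chosen after the data had been seen. On chromosome X, 180 genes from GPX1P1 to SH3BGRL had a median of −0.41, with −0.048 for KO5.2 and 0.36 for KO1.8 against the controls. Farther along the same chromosome, 59 genes from ACSL4 to CXorf40A had a median of 0.64, with 0.68 for KO5.2 and 0.066 for KO1.8. The stretch on chromosome 9 held 327 genes from LDHAP4 to SNHG7, and that on 14 held 269 genes from RBM23 to CDC42BPB. That on 8 held 269 genes from SLC25A37 to FAM203A and that on 11 held 475 genes from STIM1 to AP001007.1. A running median needs a full window, so the genes nearest each chromosome end have none. LDHAP4 and SNHG7, at ranks 26 and 352 of 377, are such window limits, as are RBM23 and CDC42BPB, at 26 and 294 of 319. GPX1P1, FAM203A, AP001007.1 and, named below, CDC123 and SOD2 are too, so none of these genes marks an observed edge. Chromosome 10 had 3 stretches, and in the one from CDC123 to RHEBP1 the median of 0.36 came with −0.022 for KO5.2 and −0.42 for KO1.8.

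On chromosome 6, 56 genes from PPIAP9 to DAXX, a stretch that holds the antigen presentation genes, had a median of 0.29, and 112 genes from TRAF3IP2 to SOD2 had one of 0.38. Chromosome 7 had 95 genes from EEF1A1P6 to FKBP9L at 0.26, where KO1.8 was at −0.23 against the controls, and chromosome 3 had 52 genes from NMD3 to CLCN2 at 0.25. The stretches were chosen on this contrast, so the 73.4% of their 2196 genes that were called is a description only. Outside them 41.7% of 7620 genes were called. Past 2-fold were 67 genes (3.05%) inside the stretches and 98 (1.29%) outside. These counts cover only genes with a known position and at least 8 CPM on average, so most of the 1234 genes past 2-fold are not in them. Genes too near a chromosome end for a running median count as outside. Whether copy number differs between the lines was not tested. For the lists that follow, the share called stands against 41.3% of all genes tested, and the counts after removal of the running median are given where they change.

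**Figure D2:**
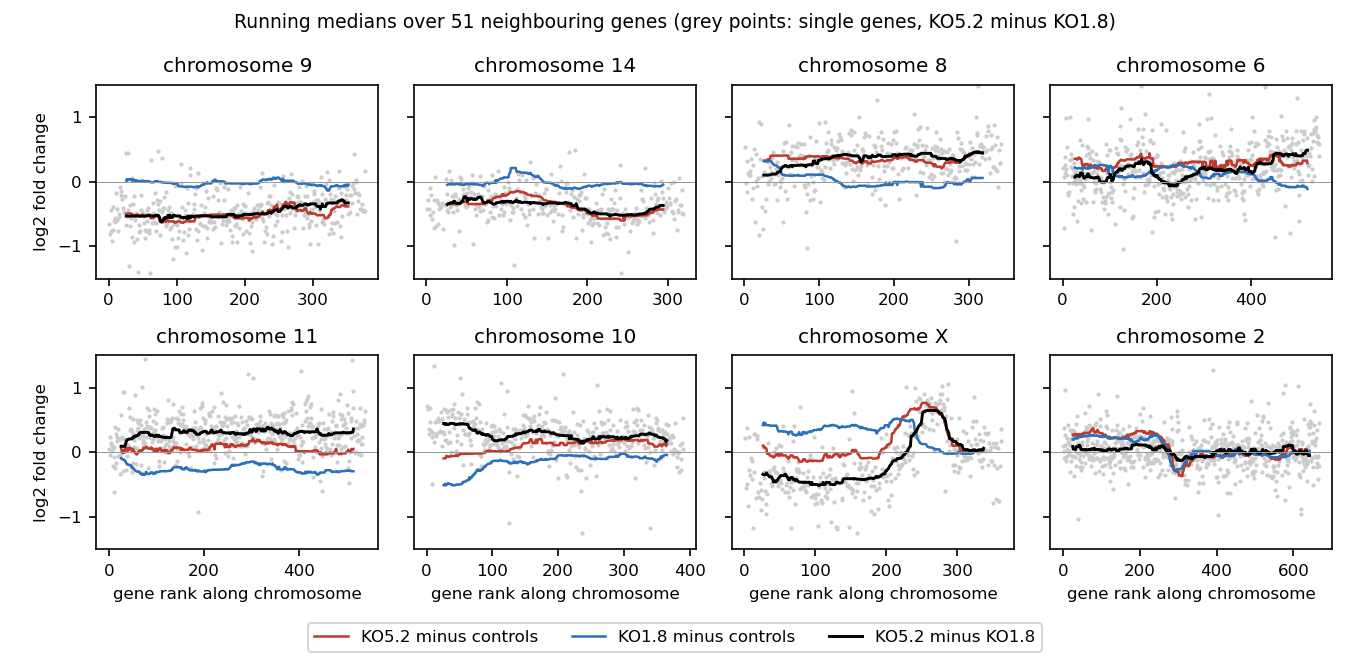
Log2 fold change along 8 chromosomes, by gene rank, for genes of at least 8 CPM on average. Grey points are single genes for KO5.2 minus KO1.8, and lines are running medians over 51 genes for KO5.2 minus KO1.8 (black), KO5.2 minus controls (red) and KO1.8 minus controls (blue). Chromosome X changes sign within the chromosome, and chromosome 2, without such a stretch, is drawn for comparison.

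Melanocyte genes were expressed in both lines, with a few members far apart. Among 9 tested melanocyte transcription factors, 3 rose and 2 fell in KO5.2 (55.6% called), and among 26 pigment and melanosome genes 7 rose and 8 fell, with a median of −0.042 and 15 of 26 (57.7%) called against 41.3% of all genes, or 6 and 10 with the running median removed. MITF, the lineage regulator, was at 1010.5 and 1047 CPM in KO5.2 libraries, against 773 and 813 CPM in KO1.8 libraries, 864 and 824 CPM in NTC and 949 and 887 CPM in Par. KO5.2 was above and KO1.8 below every control library, and the fold change was 0.38 ± 0.055 (adjusted p = 7.6e-05). SOX10, which acts above MITF, was at 517 and 485 CPM in KO5.2, against 439.7 and 418 CPM in KO1.8 (0.22 ± 0.064, adjusted p = 0.012), a call that was lost without KO5.2 replicate 1 (0.18, adjusted p = 0.12) and without KO1.8 replicate 2 (0.19, adjusted p = 0.074). IRF4, a pigmentation regulator that acts with MITF, differed by −0.71 ± 0.090 and ALX1, a craniofacial homeobox factor, differed by −0.48 ± 0.11.

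TYRP1, which acts late in eumelanin synthesis, carried the largest pigment difference. It was at 980.5 and 996 CPM in KO5.2 libraries, against 3371 and 3743 CPM in KO1.8 libraries, 4496 and 4232 CPM in NTC and 3212 and 3157 CPM in Par. KO5.2 stood below all 6 other libraries, with a log2 fold change of −1.85 ± 0.059 (adjusted p = 2.6e-11). TYRP1 lies on chromosome 9, and with the running median removed the difference was −1.31 (adjusted p = 9.3e-10). MLANA, a melanosomal antigen on the same chromosome, was at 365 and 352 CPM in KO5.2, against 529.6 and 546 CPM in KO1.8 (−0.59 ± 0.051, adjusted p = 7.3e-07). Unlike TYRP1, it moved with its neighbours, and −0.053 was left after removal (adjusted p = 0.46).

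TYR, the enzyme that starts melanin synthesis, was at 546 and 552 CPM in KO5.2, against 555 and 573 CPM in KO1.8, and did not pass the test (−0.039 ± 0.048, adjusted p = 0.55). On chromosome 11, where most genes were higher in KO5.2, this amounted to −0.36 relative to its neighbours (adjusted p = 5.7e-05). PMEL, the fibril protein of the melanosome, was at 2909.9 and 2995 CPM in KO5.2, against 2799.7 and 2911 CPM in KO1.8 (0.048 ± 0.051, adjusted p = 0.48). DCT, the other tyrosinase-like enzyme, stood at 529.6 and 545 CPM in KO5.2, against 554 and 562 CPM in KO1.8, with 346 and 298 CPM in NTC and 554 and 496 CPM in Par, and did not pass the test either (−0.055 ± 0.069).

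The promoters of TYRP1 and TYR are shown because both genes are textbook MITF targets and had log2 fold changes of −1.85 and −0.039. Both come from RefSeq on GRCh38.p14, 250 bases before to 50 after the gene start, with TYRP1 at chr9:12693135-12693434 on the plus strand and TYR at chr11:89177625-89177924 on the plus strand. Capitals mark the hexamer CATGTG or its reverse complement CACATG, the core of the M-box that MITF binds.
TYRP1: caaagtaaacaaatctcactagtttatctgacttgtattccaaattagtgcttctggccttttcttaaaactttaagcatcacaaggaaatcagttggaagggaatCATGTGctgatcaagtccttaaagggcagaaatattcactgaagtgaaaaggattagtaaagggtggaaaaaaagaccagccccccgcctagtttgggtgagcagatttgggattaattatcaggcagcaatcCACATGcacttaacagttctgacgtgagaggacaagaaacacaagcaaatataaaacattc
TYR: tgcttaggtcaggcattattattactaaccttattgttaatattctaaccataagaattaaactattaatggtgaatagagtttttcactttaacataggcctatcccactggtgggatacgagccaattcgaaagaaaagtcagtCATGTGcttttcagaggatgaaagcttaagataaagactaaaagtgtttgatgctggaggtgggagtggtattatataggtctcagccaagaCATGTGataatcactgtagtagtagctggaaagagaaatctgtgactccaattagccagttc
Each window held 2 matches, at −144 and −11 from the start in TYRP1 and at −104 and −12 in TYR. Such a match was present in 11.1% of 35116 promoter windows of the same length. A match is only a run of letters, and binding was not measured. Windows were found for 99 of 144 named genes.

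Other members differed in both directions. BCL2A1, an anti-apoptotic gene under MITF, was at 63.1 and 58.8 CPM in KO5.2, against 26.1 and 28.4 CPM in KO1.8, 21.4 and 21.97 CPM in NTC and 25.1 and 26.6 CPM in Par (1.16 ± 0.072, adjusted p = 2.7e-08). KO5.2 was above every other line for this gene. QPCT differed by 0.64 ± 0.059, RAB27A, which tethers melanosomes for transport, by 0.35 ± 0.056 and MYO5A, its motor, by 0.31 ± 0.061. GPR143, the receptor of ocular albinism, was lower in KO5.2, at 64.4 and 63.8 CPM against 102 and 105 CPM in KO1.8 (−0.69 ± 0.058, and −0.35 with the running median removed), and TRPM1, a melanocyte ion channel, differed by −0.49 ± 0.063.

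**Figure D3:**
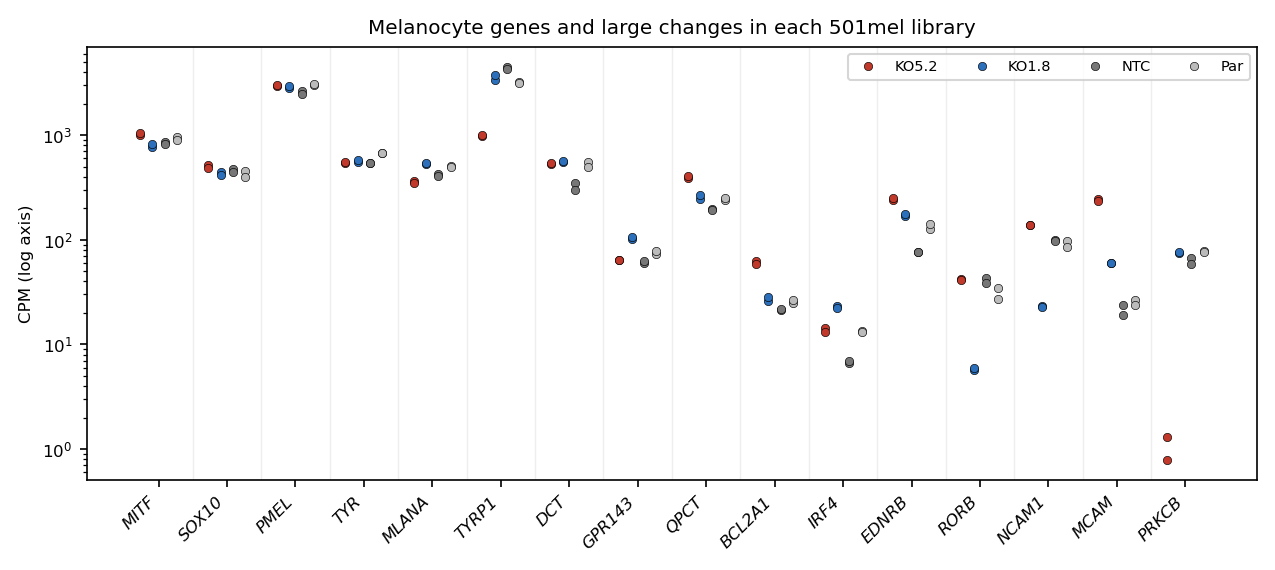
CPM on a log axis in each 501mel library for melanocyte genes and for 4 of the largest changes, with KO5.2 in red, KO1.8 in blue, NTC in dark grey and Par in light grey, 2 points per line. TYRP1 and PRKCB are low in KO5.2 alone, RORB and NCAM1 in KO1.8 alone, while PMEL, TYR and DCT lie close together in the KO lines.

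Among 10 tested melanocyte receptors 4 rose and 3 fell (70% called), against 3 and 2 with the running median removed. MET, the receptor of hepatocyte growth factor, was at 641 and 674 CPM in KO5.2, against 465 and 477 CPM in KO1.8 (0.48 ± 0.051, adjusted p = 4.2e-06). EDNRB, the endothelin receptor of melanoblasts, was at 237 and 251 CPM in KO5.2, against 168 and 178 CPM in KO1.8, 76.7 and 75.9 CPM in NTC and 128 and 139.9 CPM in Par (0.50 ± 0.059). ERBB3, a neuregulin receptor, differed by 0.30 ± 0.083, and its call was lost under the DESeq2 Wald test (adjusted p = 0.075) without KO5.2 replicate 1 (adjusted p = 0.13) and without KO1.8 replicate 2 (adjusted p = 0.052). NGFR, a neural crest marker, had 2 counts over both libraries in KO5.2, against 22 in KO1.8, whose CPM level was higher by a ratio of 11.1 (exact 95% interval 2.73 to 97.3), counting error only. Its fitted log2 fold change of −3.26 ± 0.78 rests on those few counts and did not pass under the DESeq2 Wald test (adjusted p = 0.066) or without KO5.2 replicate 2 (adjusted p = 0.063). AXL, the receptor kinase that marks undifferentiated melanoma, had at most 1 count in any KO library and 2 in any control library and was not tested.

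Of the list of genes of the undifferentiated state, 13 passed the filter on low counts, and of these 2 rose and 4 fell (46.2% called). SERPINE2, a protease inhibitor, was at 255 and 254 CPM in KO5.2, against 121 and 129.6 CPM in KO1.8 (1.02 ± 0.053, adjusted p = 5.0e-09). FST, the activin antagonist follistatin, was at 0.4204 and 0.654 CPM in KO5.2, against 3.54 and 5.03 CPM in KO1.8, 7.79 and 7.798 CPM in NTC and 4.16 and 3.79 CPM in Par (−2.98 ± 0.29, adjusted p = 1.8e-06). KO5.2 was below every other line for FST and above them for SERPINE2. NUAK1, a kinase, differed by −1.18 ± 0.15. VEGFC, the lymphatic growth factor, had 1 count in KO5.2 and 90 in KO1.8, whose level was higher by a ratio of 90.8 (exact 95% interval 15.9 to 3624). F2RL1, a protease-activated receptor, had no count in KO5.2 and 27 in KO1.8, so it was at least 9.07-fold lower in KO5.2 against a floor of 3 counts over both libraries. Intervals and floors cover counting error only.

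Neural crest and EMT transcription factors had 3 of 13 tested higher and 5 lower (61.5% called), and 1 higher and 5 lower with the running median removed. TWIST1 was at 45.9 and 47.5 CPM in KO5.2, against 69.04 and 66.9 CPM in KO1.8, 66.97 and 59.5 CPM in NTC and 49.7 and 48.1 CPM in Par (−0.54 ± 0.068, adjusted p = 2.1e-05). SNAI2, on chromosome 8, was at 121 and 109 CPM in KO5.2, against 81.3 and 78.7 CPM in KO1.8 (0.52 ± 0.072), and 0.12 with the running median removed (adjusted p = 0.21). ETS1, on chromosome 11, likewise differed by 0.43 ± 0.053 as tested and 0.075 relative to its neighbours. TFAP2C, a factor of early neural crest, was at 1.31 and 0.754 CPM in KO5.2, against 2.13 and 2.51 CPM in KO1.8, and differed by −1.17 ± 0.29, a call lost without KO5.2 replicate 2 (−0.82, adjusted p = 0.084).

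Adhesion genes had the highest median of the lists with any gene tested. Of 20 integrins, cadherins and related molecules tested, 10 rose and 4 fell in KO5.2, 14 of 20 (70%) called against 41.3% of all genes, with a median of 0.59 against −0.0033, and 10 rose and 4 fell with the running median removed. Of these, 5 rose past 2-fold and 2 fell. Beside NCAM1 and MCAM, CADM1, an immunoglobulin adhesion molecule, was at 53.2 and 53.3 CPM in KO5.2, against 16.8 and 14.6 CPM in KO1.8, 47.1 and 50.5 CPM in NTC and 54.4 and 50.7 CPM in Par (1.76 ± 0.080, adjusted p = 1.2e-09). NCAM1, MCAM and CADM1 all lie on chromosome 11, and their differences relative to their neighbours were 2.31, 1.71 and 1.47.

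ITGAV and ITGB1, integrin chains that pair with each other, were both higher in KO5.2. ITGAV was at 198 and 218 CPM in KO5.2, against 116 and 123 CPM in KO1.8, 174 and 189 CPM in NTC and 177 and 185 CPM in Par (0.80 ± 0.064). ITGB1 was at 357 and 361 CPM in KO5.2, against 219 and 227 CPM in KO1.8 (0.69 ± 0.055, and 0.34 with the running median removed). CDH3, P-cadherin, differed by 0.54 ± 0.062 and ITGA10 by 2.26 ± 0.30. On the other side, ITGA2, a collagen receptor chain, was at 6.46 and 5.63 CPM in KO5.2, against 12.6 and 13.9 CPM in KO1.8, 19.4 and 20.1 CPM in NTC and 22.1 and 22.2 CPM in Par (−1.14 ± 0.11), and ITGB5 differed by −0.88 ± 0.074. ALCAM had no count in KO5.2 and 32 in KO1.8, at least 10.8-fold lower in KO5.2, and both KO lines were far below NTC (12.3 and 10.8 CPM) and Par (7.38 and 7.98 CPM).

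Germline genes held some of the largest differences, most of them losses in KO5.2, while other members did not pass the test. Of 85 cancer-testis and germline genes, 45 passed the filter on low counts, and 6 rose and 19 fell in KO5.2, 25 of 45 (55.6%) called, of which 1 rose and 12 fell past 2-fold. The median was −0.14. Of the 45 genes 37 lie on X, where 4 rose and 15 fell. Of all 557 genes tested on X, 14.5% were called higher and 44.3% lower, so this split was near that of the chromosome. Genes of the X chromosome as a whole were shifted, and the split changed with how this was treated: 9 rose and 20 fell with the running median removed, and 14 rose and 15 fell with each chromosome's median removed. MAGEA4, PAGE5, ACTL8 and GAGE1, described next, were called lower under both treatments.

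MAGEA4, of the MAGE-A family, was at 1.103 and 0.855 CPM in KO5.2 libraries, against 118 and 129 CPM in KO1.8 libraries, 168 and 163 CPM in NTC and 135 and 141 CPM in Par. KO5.2 stood far below all other libraries, and KO1.8 was slightly below the controls. The log2 fold change was −6.97 ± 0.12 (adjusted p = 3.7e-14), and −7.09 with the running median removed. PAGE5, a PAGE family antigen, showed the same order, at 0.158 and 0.302 CPM in KO5.2, against 23.7 and 25.04 CPM in KO1.8, 35.4 and 36.3 CPM in NTC and 31.2 and 31.8 CPM in Par (−6.68 ± 0.18, adjusted p = 6.1e-12).

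ACTL8, an actin-like gene on chromosome 1, was low in both KO lines. It was at 0.736 and 0.553 CPM in KO5.2, against 8.69 and 8.604 CPM in KO1.8, 236 and 219 CPM in NTC and 101 and 101 CPM in Par. KO5.2 was the lowest line, with a log2 fold change against KO1.8 of −3.74 ± 0.18 (adjusted p = 2.0e-09), and the control lines differed too (1.17 for NTC minus Par). GAGE1 was at 0.525 and 0.302 CPM in KO5.2, against 8.12 and 8.604 CPM in KO1.8, 12.7 and 12.7 CPM in NTC and 12.7 and 12.5 CPM in Par, and GAGE12J and GAGE2A differed by −4.18 ± 0.24 and −3.28 ± 0.70. The GAGE genes are near-identical copies, so counts of single copies are uncertain.

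MAGEA10 was at 8.198 and 9.55 CPM in KO5.2, against 29.4 and 28.8 CPM in KO1.8, 38.4 and 42.1 CPM in NTC and 35.5 and 34.95 CPM in Par (−1.71 ± 0.094). TEX15, a meiotic gene on chromosome 8, was at 2.47 and 3.17 CPM in KO5.2, against 6.504 and 7.15 CPM in KO1.8 and 17.96 and 21.9 CPM in NTC (−1.27 ± 0.17), lower although most of its chromosome was higher. Other falls were those of CTAG2 (−0.78 ± 0.059), MAGEB1 (−1.18 ± 0.11), SSX2 (−0.71 ± 0.059) and MAGEB2 (−0.54 ± 0.079). For SSX2 and MAGEB1 it was KO1.8 that was above the controls, and with the running median removed SSX2 was at −0.24 and MAGEB2 at −0.12, the value of MAGEB2 no longer passing the test.

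MAGEA1 ran the other way. It was at 44.1 and 49.3 CPM in KO5.2, against 12.6 and 12.6 CPM in KO1.8, 72.3 and 68.8 CPM in NTC and 48.9 and 50.03 CPM in Par. KO1.8 stood below every other library, and the log2 fold change of 1.89 ± 0.081 (adjusted p = 6.5e-10) was the only rise past 2-fold in the list. Its relatives MAGEA3, MAGEA6 and MAGEA12 did not pass the test, nor did the near-identical pair CTAG1A and CTAG1B, which encode NY-ESO-1. With the running median removed, MAGEA3 (−0.23, adjusted p = 0.0044) and MAGEA6 (−0.16, adjusted p = 0.035) passed as lower in KO5.2. So did CTAG1A (−0.20, adjusted p = 0.013) and CTAG1B (−0.20, adjusted p = 0.020), but not MAGEA12. With chromosome medians removed none of these genes passed. MAGEA3 was at 229.7 and 243 CPM in KO5.2, against 251 and 265 CPM in KO1.8 (−0.13 ± 0.055). PRAME, an antigen on chromosome 22, was at 533 and 515 CPM in KO5.2, against 458 and 475 CPM in KO1.8 (0.17 ± 0.053, adjusted p = 0.02).

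The promoter windows of PAGE5 and ACTL8, which were low in KO5.2, and of MAGEA3 are shown because such promoters are regulated through CG methylation. MAGEA3 passed the test only with the running median removed. They come from RefSeq on GRCh38.p14, with PAGE5 at chrX:55220096-55220395 on the plus strand, ACTL8 at chr1:17755083-17755382 on the plus strand and MAGEA3 at chrX:152698544-152698843 on the plus strand. Capitals mark each CG, the dinucleotide that can be methylated, which reads the same on both strands.
PAGE5: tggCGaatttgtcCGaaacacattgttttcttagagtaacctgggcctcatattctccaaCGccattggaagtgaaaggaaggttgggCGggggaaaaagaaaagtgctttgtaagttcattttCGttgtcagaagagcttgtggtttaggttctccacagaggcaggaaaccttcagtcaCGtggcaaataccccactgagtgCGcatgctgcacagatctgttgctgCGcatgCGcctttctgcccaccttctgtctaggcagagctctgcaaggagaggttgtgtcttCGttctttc
ACTL8: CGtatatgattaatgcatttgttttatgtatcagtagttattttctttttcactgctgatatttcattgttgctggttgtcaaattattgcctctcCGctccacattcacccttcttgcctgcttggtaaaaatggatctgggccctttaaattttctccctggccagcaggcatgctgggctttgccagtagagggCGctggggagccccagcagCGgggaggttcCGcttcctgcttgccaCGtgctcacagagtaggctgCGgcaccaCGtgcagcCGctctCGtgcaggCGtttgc
MAGEA3: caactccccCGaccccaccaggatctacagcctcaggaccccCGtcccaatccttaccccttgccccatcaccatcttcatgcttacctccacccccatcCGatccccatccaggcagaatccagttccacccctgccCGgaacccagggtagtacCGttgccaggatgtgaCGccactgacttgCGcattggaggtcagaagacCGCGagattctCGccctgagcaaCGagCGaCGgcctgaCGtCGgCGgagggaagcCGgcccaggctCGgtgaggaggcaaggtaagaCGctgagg
The windows held 10, 11 and 19 CG, against a median of 14 over 35116 windows, of which 96% held at least 1. Methylation was not measured, and RefSeq gives MAGEA4 several starts, of which none is printed.

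**Figure D4:**
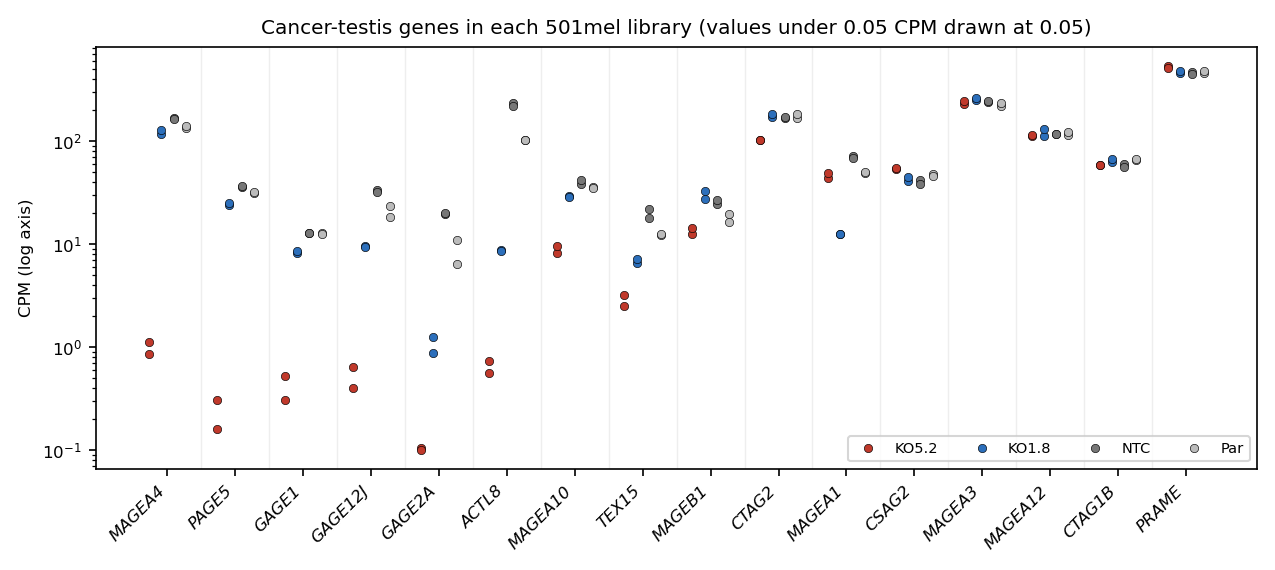
CPM on a log axis in each 501mel library for cancer-testis and germline genes, with KO5.2 in red, KO1.8 in blue, NTC in dark grey and Par in light grey, 2 points per line. MAGEA4, PAGE5 and GAGE1 are low in KO5.2 alone, ACTL8 is low in both KO lines, and MAGEA1 is low in KO1.8 alone.

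FOS, JUN and EGR1, early response genes that growth signals switch on within minutes, were lower in KO5.2, while the related FOSB (−0.61 ± 0.35, adjusted p = 0.18) and ATF3 (−0.18 ± 0.20, adjusted p = 0.51) did not pass the test. FOS was at 6.67 and 5.38 CPM in KO5.2 libraries, against 40.1 and 32.3 CPM in KO1.8 libraries, 18.6 and 30.8 CPM in NTC and 43.7 and 43.2 CPM in Par. KO5.2 was below all other libraries, and the fold change was −2.59 ± 0.20 (adjusted p = 2.6e-07), or −2.09 with the running median removed. JUN, its partner in the AP-1 dimer, was at 2.26 and 2.51 CPM in KO5.2, against 8.32 and 8.27 CPM in KO1.8, 6.07 and 7.01 CPM in NTC and 16.2 and 17.7 CPM in Par (−1.79 ± 0.16, adjusted p = 6.9e-07). The controls differed from each other as well, by −0.80 for FOS and −1.37 for JUN in NTC minus Par.

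EGR1, an early response zinc finger factor, was at 3.21 and 3.17 CPM in KO5.2, against 28.3 and 15.8 CPM in KO1.8, 12.3 and 24.4 CPM in NTC and 59.4 and 37.6 CPM in Par (−2.78 ± 0.39, adjusted p = 5.4e-05). The libraries of a line were uneven for EGR1 outside KO5.2, and NTC minus Par was −1.38. Its promoter is shown because serum response factor drives this gene through CArG boxes, marked in capitals, in a RefSeq window on GRCh38.p14 at chr5:138465229-138465528 on the plus strand.
EGR1: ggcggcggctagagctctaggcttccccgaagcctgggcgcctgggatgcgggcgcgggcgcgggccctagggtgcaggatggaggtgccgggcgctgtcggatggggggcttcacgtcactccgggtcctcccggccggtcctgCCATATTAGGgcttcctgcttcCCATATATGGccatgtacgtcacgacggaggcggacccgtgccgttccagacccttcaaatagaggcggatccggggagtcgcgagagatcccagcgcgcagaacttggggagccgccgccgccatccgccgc
The window held 2 CArG boxes, at −105 and −83 from the start, on a motif of 10 bases found in 1.29% of windows on either strand. The windows of FOS and JUN, searched in the same way, held no such match. Each window covers only bases near the gene start, so a CArG box farther upstream would not have been found. Whether FOS or JUN has such a box outside the window was not tested. Binding was not measured.

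Of 15 AP-1 genes tested, 2 rose and 5 fell (46.7% called), with a median of −0.43. FOSL2, the rising FOS relative, was at 142 and 133 CPM in KO5.2, against 74.6 and 72.1 CPM in KO1.8, 47.8 and 42.96 CPM in NTC and 77.5 and 59.02 CPM in Par (0.91 ± 0.094, adjusted p = 3.5e-06). MAFF, a small MAF protein, differed by 0.49 ± 0.067, JUNB by −0.43 ± 0.090 and BATF3 by −1.56 ± 0.34. BATF had 1 count in KO5.2 and 17 in KO1.8, whose level was higher by a ratio of 17.1 (exact 95% interval 2.69 to 716).

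Of 19 MAPK feedback genes, 6 rose and 8 fell (73.7% called), against 2 and 8 with the running median removed. DUSP4, a phosphatase that turns off ERK, was at 187 and 190.4 CPM in KO5.2, against 128 and 129 CPM in KO1.8, 64.4 and 67.1 CPM in NTC and 72.7 and 69.1 CPM in Par (0.55 ± 0.053, adjusted p = 1.8e-06, and 0.30 with the running median removed). PHLDA1 was at 61.4 and 64.2 CPM in KO5.2, against 103 and 98.9 CPM in KO1.8 (−0.69 ± 0.063), and ETV4, an ETS factor under ERK, differed by 0.33 ± 0.055. CCND1, cyclin D1 on chromosome 11, was at 1168 and 1156 CPM in KO5.2, against 1003 and 991 CPM in KO1.8 (0.22 ± 0.048), and this changed sign to −0.16 relative to its neighbours (adjusted p = 0.017). DUSP6, a direct readout of ERK activity, differed by −0.23 ± 0.080, a call lost relative to its neighbours (−0.12, adjusted p = 0.28), and SPRY4 did not pass the test (0.024 ± 0.066).

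YAP and TEAD genes moved both ways. Of 20 tested, 7 rose and 7 fell (70% called). With the running median removed the counts were 4 and 6. The transcription partners TEAD1 (0.47 ± 0.056) and WWTR1, known as TAZ (0.58 ± 0.055), and the junction protein AMOTL1 (0.75 ± 0.051) were higher in KO5.2. Relative to their neighbours TEAD1 was at 0.16, WWTR1 at 0.45 and AMOTL1 at 0.43. Several of their known targets were lower. CYR61 was at 2.73 and 2.92 CPM in KO5.2, against 10.7 and 9.91 CPM in KO1.8, 16.9 and 19.3 CPM in NTC and 10.1 and 10.3 CPM in Par (−1.86 ± 0.14, adjusted p = 2.3e-07). CTGF was at 12.7 and 12.97 CPM in KO5.2, against 22.5 and 24.2 CPM in KO1.8 (−0.86 ± 0.10), and AMOTL2 was at 0.736 and 0.452 CPM in KO5.2, against 5.67 and 5.27 CPM in KO1.8 (−3.19 ± 0.25). FSTL1, a secreted glycoprotein, was lower than the controls in both KO lines, at 18.6 and 20.01 CPM in KO5.2, against 46.1 and 47.2 CPM in KO1.8, 113 and 104 CPM in NTC and 95.1 and 90.6 CPM in Par (−1.27 ± 0.075).

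In the TGF-beta pathway, whose ligands are stored in the matrix by latent binding proteins, 7 of 24 genes rose and 6 fell (54.2% called), against 6 and 5 with the running median removed. LTBP1, such a binding protein, was at 0.841 and 1.01 CPM in KO5.2, against 12.1 and 12.3 CPM in KO1.8, 33.2 and 31.04 CPM in NTC and 15.98 and 14.4 CPM in Par (−3.71 ± 0.17, adjusted p = 1.0e-09). TGFBR2, a receptor chain, was at 7.78 and 8.29 CPM in KO5.2, against 16.9 and 19.7 CPM in KO1.8 (−1.19 ± 0.11). For both genes KO5.2 was below every other library. ID3, a target of BMP signalling, was at 50.2 and 55.1 CPM in KO5.2, against 16.9 and 24.2 CPM in KO1.8, 16.1 and 18.8 CPM in NTC and 17.5 and 21.6 CPM in Par, and here KO5.2 was above all others (1.35 ± 0.13, adjusted p = 1.8e-06).

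Of 12 WNT target genes 7 rose and none fell (58.3% called), against 6 and 2 with the running median removed. APCDD1, a WNT inhibitor, was at 450.1 and 441 CPM in KO5.2, against 250.1 and 246 CPM in KO1.8, 276 and 271 CPM in NTC and 317 and 315 CPM in Par (0.85 ± 0.049, adjusted p = 1.4e-08). RNF43, a negative regulator of WNT receptors, differed by 0.70 ± 0.13, NOTUM, a secreted WNT inhibitor, by 0.89 ± 0.19 and LEF1, a WNT transcription factor, by 0.22 ± 0.066. AXIN2, the usual reporter of the pathway, did not pass the test, at 30.4 and 28.8 CPM in KO5.2 against 27.7 and 27.5 CPM in KO1.8 (0.10 ± 0.081).

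Of 27 matrix genes 6 rose and 6 fell, and the 44.4% called was close to the share of all genes. FN1, fibronectin, was at 216 and 209 CPM in KO5.2, against 112 and 113 CPM in KO1.8, 134 and 126 CPM in NTC and 149 and 128 CPM in Par (0.92 ± 0.068, adjusted p = 1.5e-07). The laminin chains LAMA4 and LAMB1 were lower in KO5.2, LAMA4 at 9.25 and 10.7 CPM against 31.3 and 27.8 CPM in KO1.8 (−1.57 ± 0.11) and LAMB1 at 63.95 and 66.7 CPM against 108 and 109 CPM in KO1.8 (−0.74 ± 0.062). FBLN1, fibulin, differed by 1.16 ± 0.11 and TIMP2, a metalloprotease inhibitor, by 0.40 ± 0.057, while COL12A1 differed by −3.76 ± 0.42 and COL6A2 by −1.39 ± 0.21.

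Interferon-stimulated genes, which carry antiviral defence, fell more often than they rose in KO5.2. Of 25 tested, 2 rose and 13 fell, 15 of 25 (60%) called against 41.3% of all genes, with a median of −0.37. With the running median removed 2 rose and 12 fell. OAS3, a sensor of double-stranded RNA, was at 61.6 and 62.5 CPM in KO5.2, against 90.7 and 96.5 CPM in KO1.8, 63.5 and 57.3 CPM in NTC and 64.3 and 64.3 CPM in Par. KO5.2 sat among the controls and KO1.8 above them (−0.59 ± 0.063, adjusted p = 4.6e-06). IFIH1, the sensor MDA5, and IFI6 had the same order, with −0.63 ± 0.088 and −0.44 ± 0.080. In contrast USP18, which damps the interferon receptor, was at 5.36 and 4.88 CPM in KO5.2, against 10.1 and 9.43 CPM in KO1.8, 10.1 and 10.2 CPM in NTC and 8.78 and 9.58 CPM in Par, so that KO5.2 was the line apart (−0.93 ± 0.13). IFITM3 (−1.83 ± 0.19) and SAMD9 (−1.24 ± 0.14) were below the controls in KO5.2, and IRF7 had no count there and 15 in KO1.8, at least 5.04-fold lower in KO5.2.

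Of 17 tested genes of the HLA class I pathway, which loads antigen, 8 rose and 2 fell (58.8% called), with a median of 0.13. With the running median removed 7 rose and 3 fell, and the median was −0.00025. Several of them lie in the shifted stretch of chromosome 6. TAP1, a subunit of the peptide transporter, was at 163 and 169.7 CPM in KO5.2, against 112 and 111 CPM in KO1.8, 111 and 118 CPM in NTC and 103 and 107 CPM in Par (0.58 ± 0.055, and 0.32 with the running median removed). PSMB8, of the immunoproteasome, differed by 0.81 ± 0.089, or 0.50 relative to its neighbours, and TAPBP, the loading chaperone tapasin, by 0.64 ± 0.080, or 0.36. B2M, the light chain of class I, on chromosome 15, differed by 0.39 ± 0.053. HLA-B was lower in KO5.2, at 10.3 and 4.68 CPM against 14.4 and 16.1 CPM in KO1.8 (−1.04 ± 0.23). Reads of HLA genes can be shared among them, so their single values are uncertain. Of 7 tested class II pathway genes 1 fell, CTSS, the protease cathepsin S, with 2 counts in KO5.2 and 20 in KO1.8, a ratio of 10.1 (exact 95% interval 2.45 to 88.97) in favour of KO1.8.

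Of 9 APOBEC3 and inflammasome genes 2 rose and 5 fell (77.8% called), with a median of −1.51. APOBEC3B, a DNA cytidine deaminase, was at 3.36 and 3.27 CPM in KO5.2, against 9.52 and 9.43 CPM in KO1.8, 57.4 and 56.1 CPM in NTC and 29.3 and 32 CPM in Par. Both KO lines were below the controls, and KO5.2 was below KO1.8 (−1.51 ± 0.12, adjusted p = 4.2e-07). APOBEC3A, a near relative with which reads may be shared, differed by −1.71 ± 0.20. CASP4, a caspase that senses bacterial lipid, was at 0.683 and 0.654 CPM in KO5.2, against 4.06 and 3.92 CPM in KO1.8, 18.4 and 15.2 CPM in NTC and 11.7 and 9.76 CPM in Par (−2.56 ± 0.26). NLRP1, an inflammasome sensor, had 1 count in KO5.2 and 45 in KO1.8, whose level was higher by a ratio of 45.4 (exact 95% interval 7.74 to 1831), with 21.4 and 25.8 CPM in NTC and 12.1 and 10.6 CPM in Par. GSDMD, the pore protein gasdermin D on chromosome 8, was higher in KO5.2, at 7.04 and 7.09 CPM against 3.54 and 3.38 CPM in KO1.8 (1.03 ± 0.17, and 0.62 with the running median removed). Of 4 tested cytokine and NF-kB genes 2 rose: TNFAIP3, a brake on NF-kB, was at 327 and 317 CPM in KO5.2, against 170.1 and 150.4 CPM in KO1.8, 104 and 109.7 CPM in NTC and 135 and 129.6 CPM in Par (1.01 ± 0.063, and 0.58 with the running median removed), and ICAM1 differed by 0.30 ± 0.075, a call lost without KO1.8 replicate 1 (0.24, adjusted p = 0.052).

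Among 26 SWI/SNF subunit genes tested, 8 rose and 3 fell, against 4 and 3 with the running median removed, and the 42.3% called was close to the share of all genes. PHF10, like ARID2 a subunit of PBAF, was at 67.7 and 70.8 CPM in KO5.2, against 36.99 and 46.7 CPM in KO1.8, 46.2 and 47.6 CPM in NTC and 52.3 and 54.5 CPM in Par (0.72 ± 0.086). ARID1B, a subunit of the BAF form, was at 217 and 201 CPM in KO5.2, against 138 and 129.6 CPM in KO1.8 (0.64 ± 0.074). ARID1B lies in a stretch of chromosome 6 that was higher in KO5.2. PHF10 lies nearer the end of the same arm, too close for a running median of its own, and was given that of the nearest window. Relative to their neighbours the differences were 0.24 and 0.24. Of 19 Polycomb genes 4 rose and 4 fell (42.1% called, likewise close to all genes), against 2 and 4 with the running median removed. CBX6, a chromodomain subunit, was at 59.6 and 58.6 CPM in KO5.2, against 95.3 and 94.5 CPM in KO1.8 (−0.68 ± 0.056), and PHC2, a subunit that joins complexes, differed by 0.53 ± 0.055.

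Of 27 HOX genes 3 rose and 2 fell, 5 of 27 (18.5%) called against 41.3% of all genes, or 1 and 5 with the running median removed. HOXD1, at 0.578 and 0.151 CPM in KO5.2 and 1.25 and 1.74 CPM in KO1.8, differed by −2.04 ± 0.44, HOXB7 by 0.33 ± 0.088, and the calls of HOXB7, HOXA13 and HOXA2 were each lost in some alternative. Of 12 imprinted genes 5 rose and none fell (41.7% called), with or without the running median. The neighbours PHLDA2, CDKN1C and KCNQ1OT1 in the imprinted region of chromosome 11 were all higher. PHLDA2 was at 11.4 and 11.4 CPM in KO5.2, against 4.42 and 4.64 CPM in KO1.8 (1.33 ± 0.16), and relative to its neighbours 1.23. CDKN1C, an inhibitor of the cell cycle, was at 7.15 and 6.18 CPM in KO5.2, against 2.76 and 3.29 CPM in KO1.8, 3.33 and 3.04 CPM in NTC and 2.75 and 3.73 CPM in Par (1.13 ± 0.18). KCNQ1OT1, a non-coding RNA read from the opposite strand of KCNQ1, differed by 0.93 ± 0.19, and whether counting used strand is not given.

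Of 30 G2/M genes 14 rose and 2 fell in KO5.2 (53.3% called), against 8 and 0 with the running median removed. TTK, a spindle checkpoint kinase, was at 73.9 and 80.7 CPM in KO5.2, against 51.2 and 54.5 CPM in KO1.8 (0.55 ± 0.067, and 0.36 relative to its neighbours), and PTTG1, securin, was at 77.1 and 78.9 CPM in KO5.2, against 54.3 and 57.5 CPM in KO1.8 (0.48 ± 0.070). Of 30 S phase genes 10 rose and 4 fell (46.7% called), against 4 and 5 with the running median removed. MCM3, of the replicative helicase, was at 388 and 379 CPM in KO5.2, against 249 and 249 CPM in KO1.8, 200.1 and 193 CPM in NTC and 220.3 and 212 CPM in Par (0.62 ± 0.051, and 0.46 relative to its neighbours).

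Among 13 G1 regulators 3 rose and 3 fell (46.2% called), against 3 and 4 with the running median removed. CDKN2A and CDKN2B, neighbouring inhibitor genes on chromosome 9, were both lower. CDKN2A was at 38.5 and 40.6 CPM in KO5.2, against 70.6 and 76.2 CPM in KO1.8 (−0.89 ± 0.068, and −0.36 relative to its neighbours), and CDKN2B was at 5.202 and 4.98 CPM in KO5.2, against 14.1 and 12.7 CPM in KO1.8 (−1.40 ± 0.12, and −0.87). Of 23 p53 target genes 6 rose and 2 fell (34.8% called), against 2 and 2 with the running median removed. BBC3, which encodes the killer protein PUMA, was at 15.8 and 13.02 CPM in KO5.2, against 8.12 and 6.43 CPM in KO1.8 (0.99 ± 0.17), and MDM2 did not pass the test (−0.16 ± 0.066).

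In metabolism, 11 of 27 glycolysis and hypoxia genes rose and 3 fell (51.9% called), against 6 and 5 with the running median removed. EGLN3, an oxygen sensor that hypoxia induces, was at 0.2102 and 0.201 CPM in KO5.2, against 1.72 and 2.32 CPM in KO1.8, 10.6 and 9.27 CPM in NTC and 5.27 and 5.97 CPM in Par (−3.26 ± 0.38), and PFKFB4, a regulator of glycolysis, differed by 0.63 ± 0.076. Of 24 oxidative metabolism genes 11 rose and 1 fell (50% called), against 6 and 1 with the running median removed. The one that fell was PPARGC1B, a coactivator, at 22.1 and 22.1 CPM in KO5.2, against 42.04 and 37.2 CPM in KO1.8 (−0.84 ± 0.079), while PPARGC1A, the coactivator that MITF drives, differed by 0.22 ± 0.076. Of 26 ATF4 and stress response genes 9 rose and 4 fell (50% called), against 8 and 3 with the running median removed, with HSP90B1, a chaperone of the endoplasmic reticulum, at 1406 and 1459.8 CPM in KO5.2, against 911 and 972 CPM in KO1.8 (0.61 ± 0.055). HSPA5, the chaperone BiP on chromosome 9, differed by −0.51 ± 0.057, but by −0.077 relative to its neighbours. Of 22 cholesterol genes 6 rose and 6 fell (54.5% called), against 2 and 4 with the running median removed, and EBP, a sterol isomerase on X, differed by −1.14 ± 0.078, or −0.65 relative to its neighbours.

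Of 17 synapse and secretory granule genes 7 rose and 6 fell, 13 of 17 (76.5%) called. Beside SV2A, DLG4, the postsynaptic scaffold PSD-95, was higher, at 7.25 and 6.38 CPM in KO5.2 against 2.76 and 2.66 CPM in KO1.8 (1.33 ± 0.17). VGF, a secretory granule protein that both KO lines held far above the controls, was at 270.2 and 251 CPM in KO5.2, against 377 and 383 CPM in KO1.8, 93.8 and 92.7 CPM in NTC and 40.9 and 43.1 CPM in Par (−0.54 ± 0.054). SCG2, secretogranin II, was highest in KO1.8, at 0.158 and 0.352 CPM in KO5.2 against 3.69 and 2.47 CPM in KO1.8 (−3.54 ± 0.43). SYP and NLGN4X, on X, differed by −1.08 ± 0.092 and −1.17 ± 0.077, or by −0.59 and −0.83 relative to their neighbours. Of 16 potassium channel genes 4 rose and 3 fell (43.8% called), against 4 and 5 with the running median removed, and KCNAB1, an accessory subunit, differed by 1.21 ± 0.19. KCNJ2, an inward rectifier, had 1 count in KO5.2 and 30 in KO1.8, a ratio of 30.2 (exact 95% interval 5.03 to 1234) in favour of KO1.8. KCNG1 had 3 counts in KO5.2 and 30 in KO1.8, with 21.8 and 20.4 CPM in NTC and 12.4 and 9.99 CPM in Par, so that both KO lines were far below the controls.

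Switch-like genes, defined by a mean of at least 5 CPM in 1 line and at most 3 counts over both libraries of the other, numbered 2. Both were on in KO1.8. WIPF3, an actin regulator of the WIP family, had 2 counts in KO5.2 and 495 in KO1.8, whose level was higher by a ratio of 249.6 (exact 95% interval 68.7 to 2066), and the controls averaged 1.5 CPM in NTC and 1.62 CPM in Par. AL133373.1, an unprocessed pseudogene on chromosome 14, had 2 counts in KO5.2 and 278 in KO1.8, a ratio of 140.2 (exact 95% interval 38.4 to 1163) in favour of KO1.8, with 7.5 CPM on average in NTC and also in Par. No gene met this definition with KO5.2 as the line that was on.

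Markers of other cell types were at or near 0. Of 7 keratinocyte markers 5 had no count in any of the 8 libraries, and the summed level of the list was 15.6 to 16 CPM in KO5.2, against 17.5 to 18.8 CPM in KO1.8, and KRT10 was the only member that passed the filter on low counts. The fibroblast markers summed to 0.409 to 0.491 CPM in KO5.2, against 1.5 to 1.74 CPM in KO1.8. The one called was FAP, with no count in KO5.2 and 40 in KO1.8, at least 13.4-fold lower in KO5.2. Immune markers summed to 0.614 to 1.13 CPM in KO5.2, against 0.685 to 1.07 CPM in KO1.8, and endothelial markers to 0.307 to 0.393 CPM in KO5.2, against 0.211 to 0.388 CPM in KO1.8.

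**Figure D5:**
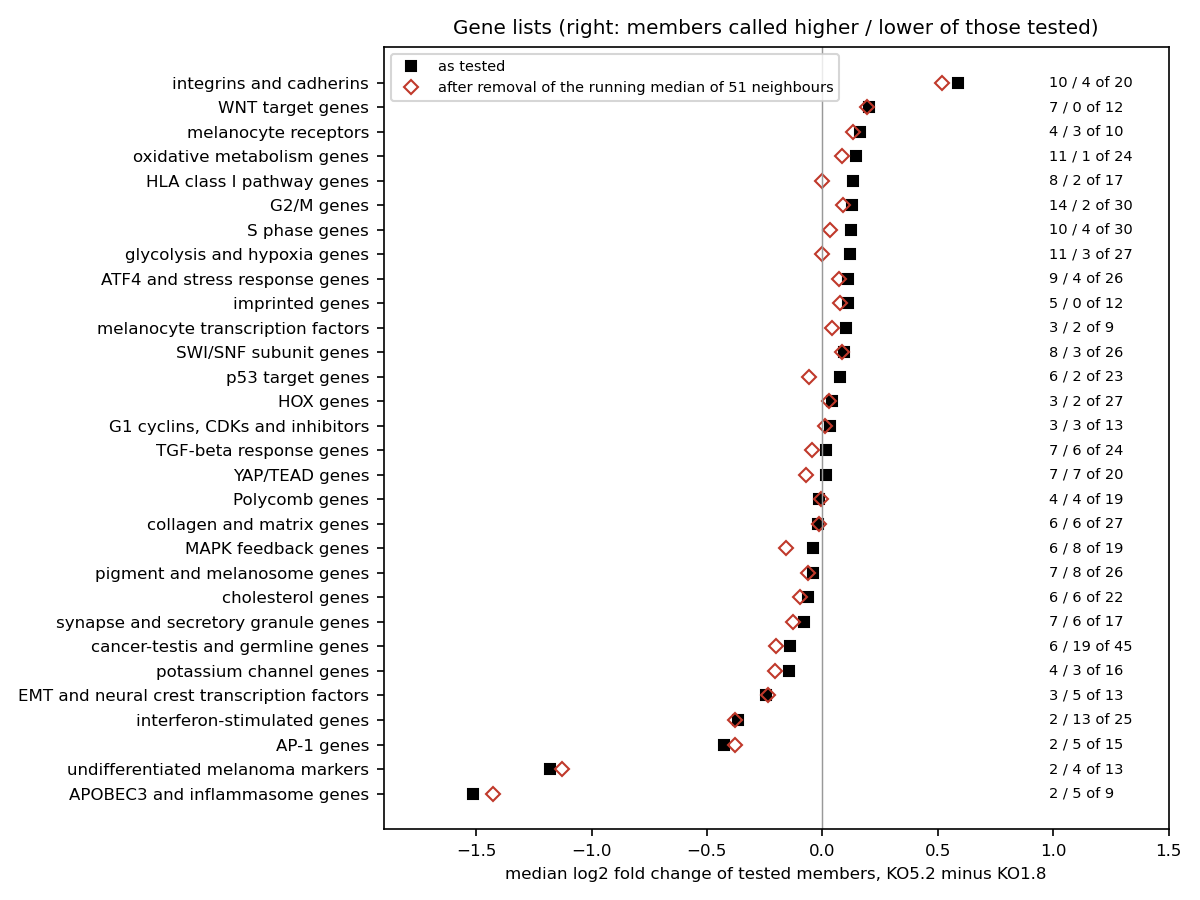
Median log2 fold change of KO5.2 minus KO1.8 for each gene list with at least 9 genes tested. Filled markers show the values as tested and open markers those after the running median over 51 neighbouring genes was removed. The counts of genes higher and lower stand beside each list. Undifferentiated, APOBEC3 and inflammasome lists lie farthest to the left and the integrin and cadherin list lies to the right under both treatments, while most other medians are near 0. Medians include genes that were not called, and in the undifferentiated list 6 of 13 (46.2%) were called, against 41.3% of all genes.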

How the data were processed

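Per the labels, polyadenylated RNA of 501mel lines was sequenced with a directional kit. The authors deposited raw read counts per gene symbol. Per the submitters' processing notes, STAR 2.6.0 and featureCounts were used on GRCh37 (hg19). The annotation release and strand setting were not given in the sources used here.

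The 8 libraries of 501mel were fitted together with edgeR 4.0.16 (limma 3.58.1, R 4.3.3), with TMM scaling, filterByExpr by line and the quasi-likelihood test, and p-values were adjusted by Benjamini-Hochberg over 16230 genes. Calls used an adjusted p of 0.05. CPM used TMM-scaled library sizes, except in marker sums and near-zero ratios. Every log2 fold change is KO5.2 minus KO1.8 unless named otherwise, with ± as its SE. DESeq2 1.42.0 served as an alternative. Steps were tested on simulated data.

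Chromosome positions came from GENCODE 29 on build 38, matched by symbol for 13914 of 16230 tested genes. Promoters came from RefSeq.

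The comparison and its 36 lists were chosen with earlier results of these data known. The named genes were the 12 largest rises and 12 largest falls at a mean log2 CPM of at least 3 in the KO libraries, up to 4 called members of each list by smallest p, switch-like genes, and ARID2, MITF, SOX10, TYR, PMEL, MLANA, AXL and NGFR. Some genes that the rule names are not reported here. Further list members were picked after their values were seen, as were the running median and the zinc finger set.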

Additional observations from a re-analysis of the deposited data

How the results depend on the processing

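The number of genes called between KO5.2 and KO1.8, 6701, was 6701 with DESeq2 size factors, 4938 with the DESeq2 Wald test, 6753 without a filter on low counts, 6697 from the KO libraries alone, 5863 with chromosome medians removed, 5442 with the running median removed, and 4983 to 5577 when a library was left out. With the replicate block it was 7514, of which 6690 were among the 6701, and all 143 named genes with a value kept their side of the threshold. Of the calls with chromosome medians removed 5190 were among the 6701, and of those with the running median removed 4695 were. Either offset covered 13849 of the 16230 genes tested, and the rest were left unshifted. The deviations of same-numbered KO5.2 and KO1.8 libraries correlated at 0.109 over genes, and other line pairs at −0.0251 to 0.138, and with 2 numbers only they were not taken to pair the samples. Replicate 1 minus replicate 2 rose with the share of G and C bases of a gene in every line. The rank correlation was 0.451 in KO5.2, 0.368 in KO1.8, 0.264 in NTC and 0.155 in Par. It was 0.0205 for KO5.2 minus KO1.8 and 0.201 for NTC minus Par. Past 2-fold, 1234 genes became 1147 with the running median removed and 1048 to 1191 with a library left out. Testing against a 2-fold threshold itself (glmTreat) gave 458, 79 higher and 379 lower. For NTC minus Par the count of 2547 was 1590 with the DESeq2 Wald test and 3560 with the replicate block, and 1310 to 1907 with a library left out, 1328 without NTC replicate 1 and 1310 without NTC replicate 2. CCND1 changed sign, to −0.039 with chromosome medians removed (adjusted p = 0.57) and −0.16 with the running median removed. Among the named genes, TYR came to pass with the running median removed. ETS1, SNAI2, RRM2B, KIF11, MCM4, HSPA5, SLC3A2, IDI1, CYC1, HOXA13, HOXA2, ACTL6A and MLANA then no longer passed. The offset is built from each gene's neighbours. NGFR, ERBB3, HOXB7, HOXA13 and HOXA2 were lost under the DESeq2 Wald test. At these depths a gene of a few counts has a wide interval, and its fitted fold change is no bound.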

Other observations

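Zinc finger genes of chromosome 19, most of which encode KRAB repressors and stand in clusters of related copies, were often lower in KO5.2. Symbols that begin with ZNF or ZFP were taken as a set after their values were seen, so the set has no test. Of 182 such genes tested on chromosome 19, 4 rose and 100 fell (54.9% lower), and 3 rose and 57 fell past 2-fold. The median log2 fold change was −0.53, with 0.15 for KO5.2 and 0.65 for KO1.8 against the controls, whose libraries both values share. The control lines themselves differed over this set, with a median of −0.35 for NTC minus Par. Of 713 other genes of chromosome 19, 123 rose and 136 fell (19.1% lower), with a median of 0.0085. Of 212 ZNF or ZFP genes elsewhere, 20 rose and 68 fell, with a median of −0.14.

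ZNF850 was at 7.99 and 8.496 CPM in KO5.2, against 31.6 and 31.4 CPM in KO1.8, 11 and 12.2 CPM in NTC and 12.8 and 14.5 CPM in Par (−1.93 ± 0.098). KO1.8 was above all other lines for this gene. ZNF227 was at 6.096 and 7.54 CPM in KO5.2, against 23.6 and 21.1 CPM in KO1.8, 13.5 and 14.4 CPM in NTC and 18.3 and 17.98 CPM in Par (−1.71 ± 0.11), and ZNF121 was at 29.5 and 28.96 CPM in KO5.2, against 69.6 and 57.7 CPM in KO1.8, 41.6 and 46.9 CPM in NTC and 45.3 and 45.1 CPM in Par (−1.12 ± 0.089). ZNF568 was at 0.2102 and 0.302 CPM in KO5.2, against 7.39 and 7.68 CPM in KO1.8, 0.119 and 0 CPM in NTC and 1.64 and 1.005 CPM in Par (−4.84 ± 0.33), and ZNF829 was at 0.263 and 0.402 CPM in KO5.2, against 10.4 and 8.51 CPM in KO1.8, 0.0595 and 0 CPM in NTC and 1.93 and 1.48 CPM in Par (−4.79 ± 0.29). For both genes KO5.2 and NTC were below Par and KO1.8 was above it. Related zinc finger genes can share reads, and how such reads were counted is not given in the sources used here.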
